A study of Arabidopsis thaliana with 12 samples.

Results

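The genes described here encode parts of the photosystems: LHB1B2 (AT2G34420) of the photosystem II antenna, PSB27 (AT1G03600), PSBW (AT2G30570) and PSBY (AT1G67740) of photosystem II, and PSAN (AT5G64040) of photosystem I. They are all nuclear genes. They were chosen by name, with earlier results of these data known. Each was taken through the probe annotated to that gene alone, which gave probes 2665, 2306, 3529, 2030 and 85. The array held 3439 probes, of which 692 were annotated to a single gene (689 distinct genes), and these 5 genes are among them. Total RNA came from wild-type plants of Arabidopsis thaliana, ecotype C24, and no mutant or transgenic line was included. One group was raised in light that preferentially excites photosystem I (PSI light) and the other in light that preferentially excites photosystem II (PSII light). Each group held 6 array samples, numbered 1 to 6 in both. The labels give no plant age, tissue, duration of the light treatment, wavelength or array type.

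Photosystem II takes electrons from water and passes them to plastoquinone, and photosystem I then uses light to drive them on towards ferredoxin. The photosystems work in series, so light that favours one of them leaves the electron carriers between them more oxidized or more reduced. Plants are known to respond by moving light-harvesting complex II between the photosystems within minutes, and over days by altering the amounts of photosystem and antenna proteins. LHB1B2 encodes an Lhcb1 protein, the main chlorophyll a/b-binding protein of light-harvesting complex II. PSB27 is a lumenal protein that binds assembling or repaired photosystem II, PSBW and PSBY are small membrane-spanning subunits of photosystem II, and PSAN is a lumenal subunit of photosystem I near the plastocyanin docking side.

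The deposited intensities are in arbitrary units on a linear scale, and summed intensity per sample ranged from 3642.89 to 3767.52. Within each group, samples 1 and 2, 3 and 4, and 5 and 6 deviated together from the group mean, with correlations across probes of 0.468 to 0.693. All other correlations were negative (-0.612 to -0.091). Subtracting the group mean pushes correlations towards negative values, so the negative sign alone says little. Each such pair was averaged and counted as 1 replicate, so that samples 1 and 2 made replicate 1, samples 3 and 4 replicate 2, and samples 5 and 6 replicate 3. Nothing in the labels ties the replicates to separate plants or cultures. The p-values therefore reflect the spread between these arrays, part or all of which could be technical. The number of arrays limits the precision. A smaller amount of one transcript cannot be told apart from a smaller share of the cells that express it in such bulk RNA. No member lay near the top value of the table, 99.999999999, since the highest intensity of any of them was 25.4.

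Of the 5 genes, LHB1B2 and PSB27 passed the test between the light regimes, both with the lower level in PSII light. PSBW, PSBY and PSAN did not pass it. Over all 3439 probes 3.14% were called (limma, Benjamini-Hochberg adjusted p under 0.05), 2.38% as lower in PSII light and 0.756% as higher. The genes were chosen with earlier results of these data known, so their count cannot be read as an excess over these shares. The values are shown gene by gene in the plot of intensity per sample.

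**Figure D1:**
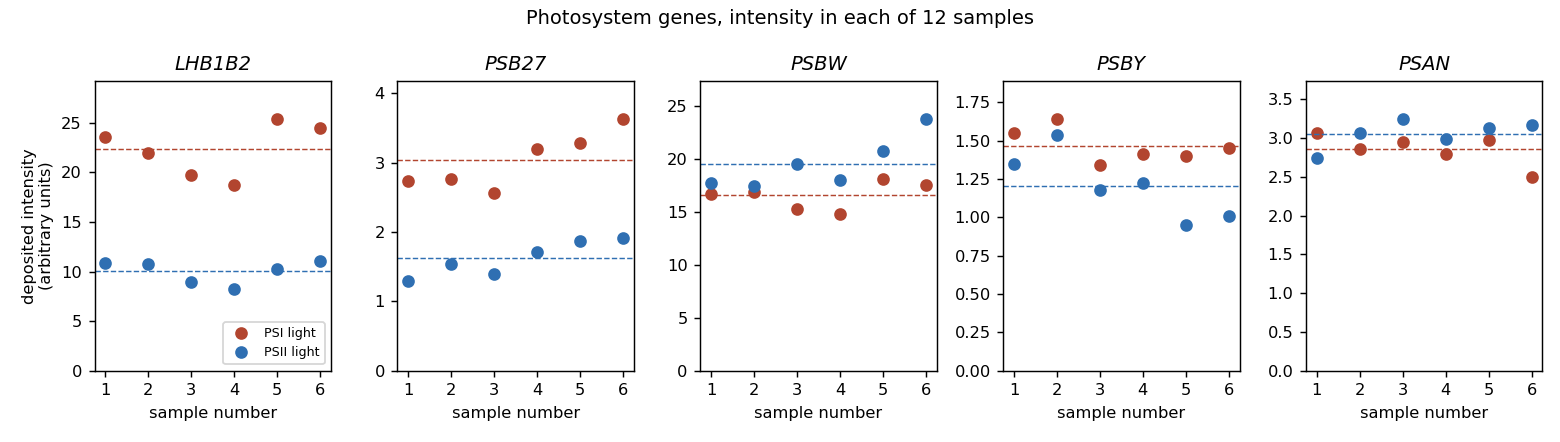
Deposited intensity (arbitrary units, axis from 0) of the 5 genes by sample number, for PSI light (red) and PSII light (blue), with dashed lines at the mean of the 6 samples of a group. The groups lie apart in all samples for LHB1B2 and PSB27 and overlap for PSBW, PSBY and PSAN.

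LHB1B2, the antenna gene, had intensities from 18.7 through a median of 22.7 to 25.4 in the 6 PSI-light samples, and from 8.23 through 10.5 to 11.05 in the 6 PSII-light samples. The lowest PSI-light sample was well above the highest PSII-light sample. Over replicates the mean was 22.3 ± 2.85 with PSI light and 10.03 ± 1.25 with PSII light (SD, n = 3). On the normalized log2 scale LHB1B2 fell by 1.13 ± 0.15 in PSII light (SE; limma, Benjamini-Hochberg adjusted p = 0.0203), which is 2.18-fold, with a 95% interval of -1.48 to -0.77. By size of the difference it ranked 13th of 3439 probes and 3rd of the 692 single-gene probes. The gene lies beside LHB1B1 (AT2G34430), another Lhcb1 gene, in the TAIR10.1 gene table. Lhcb1 genes are near-identical in their coding sequence, so the spot may report several of them together, and the value is uncertain for LHB1B2 alone.

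PSB27, the assembly and repair factor, was at 2.57 to 3.63 in PSI light, with a median of 2.98, and at 1.29 to 1.92 in PSII light, with a median of 1.63. Here too no sample of one group reached into the other. The replicate means were 3.03 ± 0.377 and 1.62 ± 0.247 (SD, n = 3). PSB27 fell by 0.82 ± 0.14 on the normalized log2 scale in PSII light (SE; limma, Benjamini-Hochberg adjusted p = 0.0339), a 1.77-fold difference with a 95% interval of -1.16 to -0.49. With a pseudocount 10 times larger, 1.93, which is near the intensity of this gene, the log2 difference was -0.48 (adjusted p = 0.0366, limma with Benjamini-Hochberg). It ranked 48th of all probes and 8th of the single-gene probes by size. When 1 of the 6 replicates was omitted, the calls of LHB1B2 and PSB27 held without PSI-light replicate 2 (adjusted p = 0.0284 and 0.0477, limma with Benjamini-Hochberg) and were lost without any of the other 5, where adjusted p reached 0.0815 and 0.125. Over these omissions the log2 difference lay between -1.22 and -1.01 for LHB1B2 and between -0.93 and -0.72 for PSB27. The difference of PSB27 also missed the threshold in a fit without an intensity trend (adjusted p = 0.0544, limma with Benjamini-Hochberg).

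PSBW, a small subunit that helps to stabilize photosystem II supercomplexes, lay between 14.9 and 18.2 in PSI light, with a median of 16.8, and between 17.5 and 23.8 in PSII light, with a median of 18.8. The sample ranges overlapped narrowly, because 2 PSI-light samples were as high as the lowest PSII-light samples. The replicate means were 16.6 ± 1.42 and 19.6 ± 2.44 (SD, n = 3). The normalized log2 difference was 0.38 ± 0.12 (SE; limma, unadjusted p = 0.0175, Benjamini-Hochberg adjusted p = 0.145), with a 95% interval of 0.09 to 0.66 that carries no adjustment over probes. Its size depended on the scaling between arrays. It was 0.23 on values as deposited (adjusted p = 0.381) and 0.17 with median centring (adjusted p = 0.633, limma with Benjamini-Hochberg). With the repeats kept as separate arrays in a random block PSBW passed (adjusted p = 0.0148, limma with Benjamini-Hochberg), in a fit that called 4.59% of all probes as higher in PSII light.

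PSBY, which is made as a precursor cut into a pair of similar membrane peptides, ranged from 1.34 to 1.64 in PSI light, with a median of 1.43, and from 0.951 to 1.54 in PSII light, with a median of 1.20. PSII-light samples 5 and 6 were the lowest. PSII-light samples 1 and 2 lay within the PSI-light range, sample 1 just above the lowest PSI-light sample. The replicate means were 1.47 ± 0.115 and 1.21 ± 0.231 (SD, n = 3). The normalized log2 difference was -0.25 ± 0.13 (SE; limma, Benjamini-Hochberg adjusted p = 0.306), with a 95% interval of -0.57 to 0.06. The interval spans 0. The difference was -0.12 without PSII-light replicate 3 and -0.11 with the larger pseudocount. That pseudocount, 1.93, is above every intensity of this gene and by itself shrinks the log2 difference.

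PSAN, the photosystem I gene, was between 2.49 and 3.06 in PSI light, with a median of 2.90, and between 2.75 and 3.25 in PSII light, with a median of 3.10. PSII-light samples 2, 3, 5 and 6 lay above every PSI-light sample, while PSII-light samples 1 and 4 fell within the PSI-light range. The replicate means were 2.86 ± 0.115 and 3.06 ± 0.129 (SD, n = 3). The normalized log2 difference was 0.11 ± 0.06 (SE; limma, Benjamini-Hochberg adjusted p = 0.323), with a 95% interval of -0.03 to 0.25, and it ranked 1620th of 3439 probes by size. With median centring it was 0.03, and with the larger pseudocount, which by itself shrinks the log2 difference at such intensities, 0.07. On the normalized scale the replicates of the groups did not overlap for 4 of the 5 genes, all but PSBY. Of all probes 27.5% had no such overlap, 12.8% lower and 14.7% higher in PSII light. This count of genes depended on the scaling, since on deposited values the replicate means of PSBW and of PSAN overlapped between the groups. The genes were chosen with earlier results known, so the count cannot be read as an excess.

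**Figure D2:**
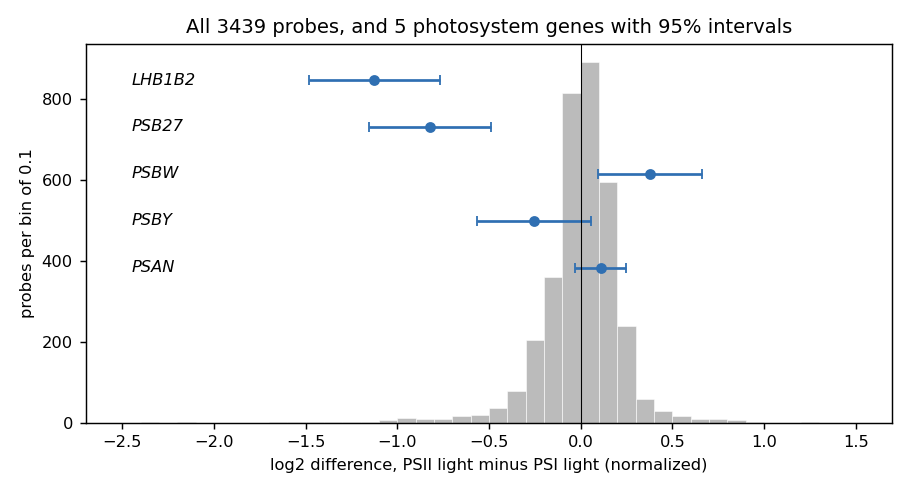
Histogram of the normalized log2 difference, PSII light minus PSI light, of all 3439 probes in bins of 0.1, with the difference and 95% limma interval of the 5 genes drawn above it at arbitrary heights. LHB1B2 (-1.13) and PSB27 (-0.82) lie in the left tail, PSBW (0.38) on the right flank, and PSBY (-0.25) and PSAN (0.11) within the body.

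The genes also differed in how reproducible they were. On the log2 scale of deposited intensities the SD between repeat measurements of a replicate was 0.060 for LHB1B2, 0.069 for PSBW, 0.073 for PSBY, 0.101 for PSAN and 0.150 for PSB27. The SD between replicates of a group was 0.188 for LHB1B2, 0.198 for PSB27, 0.152 for PSBW, 0.212 for PSBY and 0.062 for PSAN. For LHB1B2, PSB27, PSBW and PSBY the SD between replicates was thus above that between repeats, by the least for PSB27, while for PSAN it was below. The SD between replicates is of averaged repeats and the SD between repeats is of single arrays. Averaging lowers the former, so the order for PSAN does not show that its replicates varied less than its repeats. The group difference of LHB1B2 and of PSB27 was several times either SD, and that of PSAN was of the size of its repeat SD.

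Samples were next compared number by number, since the labels share the numbers and replicates with the same number deviated together across the light regimes. Whether single repeats within a replicate match across the regimes was not tested. The 6 numbers stand for 3 replicates with repeats, so they are not 6 independent comparisons. The log2 ratio of deposited intensity in PSII light over PSI light ran from -1.30 to -1.03 for LHB1B2, with a median of -1.15, and from -1.08 to -0.82 for PSB27, with a median of -0.89. These ratios varied little between numbers. For PSBW the ratio was above 0 at all 6 numbers but ran from 0.05 to 0.44, with a median of 0.24. PSBY was below 0 at all 6 numbers, from -0.56 to -0.09, with a median of -0.21; its ratios at numbers 5 and 6 (-0.56 and -0.53) stood below those of the other numbers. PSAN was above 0 at 5 of 6 numbers, from -0.16 at number 1 to 0.34 at number 6, with a median of 0.10. A common direction at all 6 numbers, seen for 4 of the 5 genes, was frequent on this array: it held for 38.6% of all probes, 11.4% lower and 27.1% higher in PSII light. Complete separation of all 6 samples from 6, seen for LHB1B2 and PSB27, held for 14.7% of all probes. As shares of all probes, 5.35% were separated with lower values in PSII light and 9.36% with higher values. These shares describe deposited values, on which the median difference of all probes was 0.06 on the log2 scale.

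**Figure D3:**
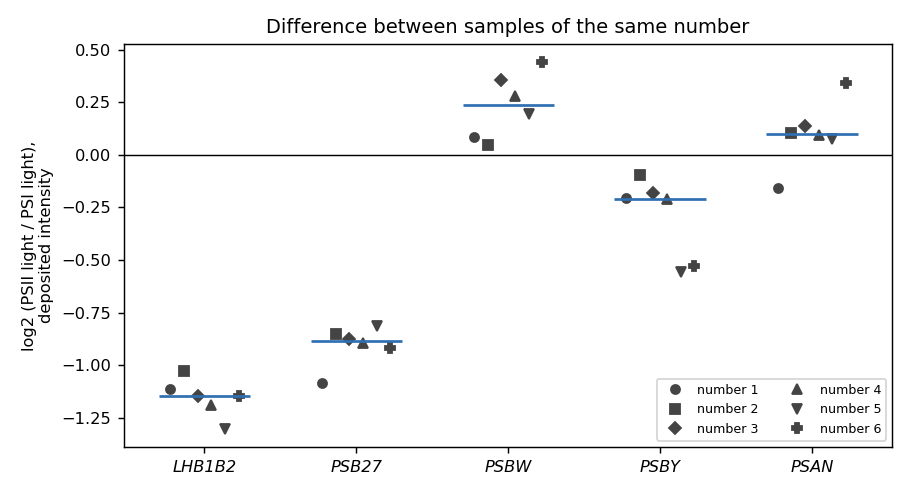
Log2 ratio of deposited intensity in PSII light over PSI light for each of the 6 shared sample numbers (symbols), with the median as a blue line. The 6 ratios of LHB1B2 lie between -1.30 and -1.03 and those of PSB27 between -1.08 and -0.82, while those of PSAN fall on both sides of 0.

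Ratios between the genes within a sample do not move with a scale factor of that sample, and were compared between the light regimes for all 10 pairs. Such a ratio shows that a pair of probes differed unequally and does not say which transcript is more abundant. The ratio of LHB1B2 to PSBW had log2 values of 0.44, 0.35 and 0.48 in PSI-light replicates 1 to 3 and of -0.70, -1.13 and -1.06 in PSII-light replicates 1 to 3. The replicates of the groups stood far apart, and the mean log2 ratio was lower in PSII light by a difference of -1.39, a factor of 2.62. The ratio of LHB1B2 to PSAN, an antenna gene of photosystem II against a subunit gene of photosystem I, differed by -1.25, from 2.96 ± 0.225 to 1.71 ± 0.223 (SD, n = 3). The ratios of PSB27 to PSBW and to PSAN were lower in PSII light as well. Its log2 ratio to PSBW went from -2.46 ± 0.132 with PSI light to -3.60 ± 0.0454 with PSII light, and its log2 ratio to PSAN from 0.08 ± 0.235 to -0.93 ± 0.170 (SD, n = 3).

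In 5 of the 10 ratios the replicates of the groups did not overlap: LHB1B2 to PSBW, to PSBY (difference -0.86) and to PSAN, and PSB27 to PSBW and to PSAN. Each of these gave an exact two-sided permutation p of 0.1, the smallest that 3 replicates against 3 allow, and a Benjamini-Hochberg adjusted p of 0.2 over the 10 pairs, so that none could pass 0.05. The same 5 ratios were separated over all 6 samples of each group. Each of them holds LHB1B2 or PSB27, so they largely repeat the differences of these genes. The ratio of LHB1B2 to PSB27, the genes with a call, differed by -0.25 (exact permutation p = 0.3), from 2.88 ± 0.150 to 2.63 ± 0.267 (SD, n = 3), and its replicates overlapped. The ratios among the other genes overlapped too. PSBW to PSBY differed by 0.53 (exact permutation p = 0.2), PSBY to PSAN by -0.40 (0.2), PSBW to PSAN by 0.13 (0.4), and PSB27 to PSBY by -0.61 (0.2). By number, 9 of the 10 ratios differed in 1 direction at all 6 numbers, the exception being PSBW to PSAN. The shares over all pairs of probes were not computed, so these counts of ratios have no background here. The shares that follow are of single probes and cannot stand in for it. Of single probes, 27.5% had replicates without overlap on the normalized scale. On deposited values 14.7% of probes had all 6 samples apart and 38.6% had 1 direction at all 6 numbers.

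**Figure D4:**
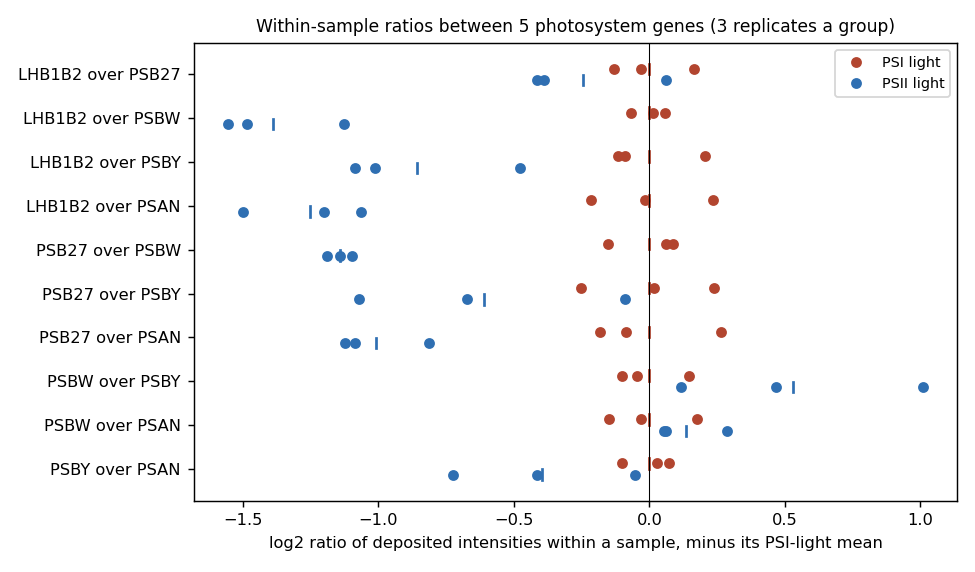
Log2 ratio of the deposited intensities of each pair of genes within a sample, drawn for the 3 replicates of PSI light (red) and PSII light (blue) after subtracting the PSI-light mean, with ticks at the group means. The groups are apart for LHB1B2 against PSBW, PSBY and PSAN and for PSB27 against PSBW and PSAN.

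The same within-sample ratio was formed between each gene and each of 2578 other probes that were above the dimmest 25% and positive in every sample. LHB1B2 was lower in PSII light without overlap of replicates relative to 97.1% of these probes and higher relative to 0.116%. PSB27 was lower relative to 92.9% and higher relative to 0.349%. These ratios involve no scaling between arrays. The 2578 ratios of a gene all hold that gene's own values, so the shares restate its difference and are not independent results. PSBY took an intermediate place, with 46.9% lower and 1.90% higher. PSBW was higher relative to 19.6% and lower relative to 0.853%, and PSAN was higher relative to 14.3% and lower relative to 8.96%. The median difference in log2 ratio was -1.25 for LHB1B2, -1.01 for PSB27, -0.40 for PSBY, 0.14 for PSBW and 0.0009 for PSAN.

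**Figure D5:**
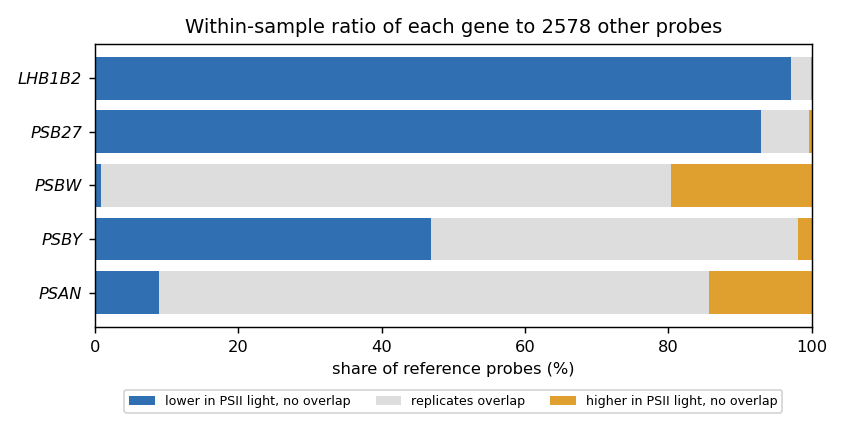
Share (%) of 2578 reference probes against which the within-sample ratio of a gene was lower in PSII light without overlap of the 3 replicates per group (blue), overlapped (grey), or was higher without overlap (orange). The blue share is 97.1% for LHB1B2 and 92.9% for PSB27, against 46.9% for PSBY, 8.96% for PSAN and 0.853% for PSBW.

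Of 90 nuclear loci listed for the antenna, the photosystems, their assembly, state transitions, the electron carriers and the plastid ATP synthase, 8 had a probe of their own: the 5 genes above and 3 others. By limma with Benjamini-Hochberg adjustment, 12 of all 692 single-gene probes fell and 5 rose in PSII light. Of the 8 listed genes, 2 fell (LHB1B2 and PSB27) and 0 rose. The lists were chosen with earlier results of these data known. At an unadjusted p under 0.05 limma counted the same 2 as lower and PSBW as higher, a threshold that 22.3% of all probes passed (10.9% of probes as lower and 11.4% as higher in PSII light). The median log2 difference of the 8 listed genes was 0.05, against 0.01 over all probes. LPA19 (AT1G05385), a Psb27 homologue that aids maturation of the D1 protein of photosystem II, had an intensity of 0.943 ± 0.0747 under PSI light and of 0.964 ± 0.110 under PSII light (SD, n = 3). Its normalized log2 difference was -0.02 (limma, Benjamini-Hochberg adjusted p = 0.947), with a 95% interval of -0.23 to 0.20. The within-sample log2 ratio of PSB27 to LPA19, a pair compared after their values were seen, went from 1.68 ± 0.177 with PSI light to 0.74 ± 0.164 with PSII light (SD, n = 3; exact permutation p = 0.1, the smallest possible). It was lower in PSII light at all 6 numbers, by -1.04 to -0.81.

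Among the assembly factors, AT1G22700 (known as PYG7, needed for photosystem I accumulation) had a normalized log2 difference of 0.15 (limma, Benjamini-Hochberg adjusted p = 0.417). AT1G54500, a rubredoxin-like protein needed for photosystem II, also stood at 0.15 (adjusted p = 0.355, limma with Benjamini-Hochberg). Probe 3446 is annotated to 3 genes of the minor photosystem II antenna protein Lhcb4. Its intensity was 2.09 ± 0.224 under PSI light and 1.71 ± 0.119 under PSII light (SD, n = 3), a normalized log2 difference of -0.25 with a 95% interval of -0.51 to 0.0010 (limma, Benjamini-Hochberg adjusted p = 0.225). In all, 7 probes were annotated to several genes with at least 1 on the lists. Of these 7, against 3.14% of all probes, 1 passed the test. That was probe 1401, singled out after its value was seen, which is annotated to AT1G02910 (LPA1, a factor for photosystem II assembly) and to AT4G28740. It was higher in PSII light at a deposited 0.553 ± 0.0428 against 0.279 ± 0.0270 (SD, n = 3). The normalized log2 difference was 0.60 (limma, Benjamini-Hochberg adjusted p = 0.00466). This probe is dim, near the pseudocount of 0.193, which makes the normalized difference smaller than that of the deposited means. Which of its genes it reports is not known.

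The single-gene probes most like each member were found by Pearson correlation of normalized log2 levels over the 6 replicates of both groups, among 502 candidates. These correlations are a description, and they follow the group difference where the member has one. For LHB1B2 the nearest were AT5G49800 (r = 0.962), AT2G46630 (0.960) and AT4G21770 (0.953). For PSB27 they were AT4G21770 (0.989), AT4G01310 (0.981), a plastid ribosomal protein gene, and AT2G29180 (0.971). AT4G21770 was thus near to both genes, with a log2 difference of -0.51 (limma, Benjamini-Hochberg adjusted p = 0.0633). For PSBW they were AT1G13990 (0.982), AT4G14330 (0.973) and AT5G27560 (0.972), for PSBY AT5G19940 (0.951), AT4G17440 (0.939) and AT1G06730 (0.914), and for PSAN ETFQO (0.995), AT2G03390 (0.947) and TRM31 (0.946).

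Probes with numbers within 3 of a member were examined because a bright neighbour could add to a spot, although neither the labels nor the table gives the layout of the array. For LHB1B2 the 5 such probes had log2 differences between -0.13 and 0.01 and mean intensities of up to 1.66, against 16.2 for LHB1B2. For PSB27 the 4 such probes lay between -0.26 and 0.15, with intensities of up to 0.879 against 2.33. The 5 such probes of PSBW ranged more widely, from -0.24 to 0.57, which is above the 0.38 of PSBW itself, with intensities of up to 2.81 against 18.1. Those of PSBY lay between -0.11 and -0.01 and those of PSAN between -0.02 and 0.17. Of the 21 neighbours of the 5 genes, 0 passed the test by limma with Benjamini-Hochberg adjustment, and 3 had an unadjusted p under 0.05, against 22.3% of all probes. Whether neighbouring spots contributed to any member was not tested.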

How the data were processed

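Per the labels, total RNA of 12 samples was measured by array, 6 in each light regime. The deposited table gives 1 spot intensity per probe on a linear scale; the background correction and normalization by the authors are not given in the sources used here. Members and lists were chosen with earlier results of these data known. A pseudocount of 0.193, which is the 5th percentile of positive values, was added before taking log2, and the values were quantile normalized; fold changes on this scale understate those of dim probes. Repeats were averaged as described above, where the smallest gap between a partner's correlation and the next was 0.559. PSI-light and PSII-light replicates 1, 2 and 3 deviated together (correlations 0.323, 0.366 and 0.360), so by the values replicates of the same number appear paired. The labels share the numbers between groups but state no pairing. The main fit and the main test of the ratios did not use this pairing, and the replicate block did. The comparison used a two-sided test from limma 3.58.1 (lmFit, then eBayes with an intensity trend) in R 4.3.3 on all 3439 probes, with a Benjamini-Hochberg threshold of 0.05, and was first tested on simulated data. The median difference of all probes was 0.01 after quantile normalization. Within-sample ratios used deposited intensities and exact permutation tests (scipy 1.17.1). Named were the 5 members, list genes with a probe of their own, probes whose genes all stand on 1 list, and 3 genes per member by correlation. Genes came from a 2016 platform annotation, with 690 of 692 single-gene probes matched to TAIR10.1 symbols. Alternatives were other scalings, a dim-probe filter, a pseudocount of 1.93, no trend, the replicate block, repeats as a random block and omission of each replicate.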

Additional observations from a re-analysis of the deposited data

How the results depend on the processing

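All alternatives tried kept the sign of the 5 genes' differences. The count of 108 called probes became 235 without the dimmest 25% of probes, 228 when samples were median-centred and 365 with repeats as a random block, and 20 to 140 when 1 replicate was left out, which leaves fewer samples; it was 103 with the replicate block, 69 of them shared. Higher levels in PSII light made up 24.1% of the calls, and 43.3% with the random block. Leaving out replicates moved LHB1B2 between -1.22 and -1.01, PSB27 between -0.93 and -0.72, PSBW between 0.33 and 0.41, PSBY between -0.36 and -0.12 and PSAN between 0.08 and 0.14. PSB27 (-0.82) lost its call without a trend, and PSBW (0.38) passed with the random block; the cause was not tested. The replicate block changed no call among the 5 genes (adjusted p = 0.0405 for LHB1B2 and 0.0241 for PSB27, limma with Benjamini-Hochberg). Of the 8 listed genes 2 were called, 1 without a trend and 0 to 2 with a replicate left out. Of the 10 ratios 0 passed, and 8 did when all 6 samples per group counted as separate, which treats repeats as independent. With the replicate block the smallest exact p is 0.25, so it could not show a call.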
